A study of Capra hircus with 18 samples.

Results

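IL1R2 and IL18RAP are a pair of interleukin receptor genes that were followed here in the blood of goats. They were chosen by name from the genes listed where goats carried for 180 min were set against controls, and from the 30 min table where present. The deposited tables list 1557 genes in all, of which these 2 were the members. Both were listed in the 180 min table of 1247 genes, and 0 of the 2 were in the 30 min table of 430 genes. The 180 min table therefore chose them, and their difference between the 180 min group and the control group is described below without a test.

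The animals were uncastrated male Spanish goats, 8 months old, a meat breed, and the blood was drawn once the treatment had ended. One RNA library was sequenced per goat. The control group held 7 goats that stayed in pens and were not moved. The 180 min group held 7 goats carried in a trailer over about 200 km, and the 30 min group held 4 goats carried over about 50 km. These were part of 54 goats, 18 per treatment, handled on 2 days, and since the labels do not say which goat belonged to which day, a day term could not be fitted. Whole blood is a mixture of cells, and RNA of haemoglobin was depleted before sequencing.

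The IL-1 family of cytokines drives fever, the acute phase response and the release of neutrophils from the marrow. IL-1 signals through the receptor IL1R1 joined to the accessory chain IL1RAP. IL1R2 binds IL-1 but has no signalling tail, so it acts as a decoy, and glucocorticoids are known to raise it in neutrophils and monocytes. IL-18 binds IL18R1, and IL18RAP is the accessory chain that this receptor needs to signal, known on natural killer cells, T cells and neutrophils.

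Both genes lie on chromosome 11 in the coordinates of the tables, whose genome build is not given in the sources used here. IL1R2 (ENSCHIG00000024086) spans chr11:6611209-6650345 on the plus strand, with a gene length of 4379 bases in the tables. IL18RAP (ENSCHIG00000019718) spans chr11:7077033-7109390 on the same strand, with a gene length of 4473 bases. The gap between the genes is 427 kb. In the gene order of the RefSeq assembly ARS1.2 it holds 4 protein-coding genes, IL1R1, IL1RL2, IL1RL1 and IL18R1, which are the other receptor genes of this cluster. None of these 4 was listed at 180 min or at 30 min, so no value of theirs was analysed here. Apart from the members, 3 listed genes lay within 1 Mb, all on the IL1R2 side.

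The depth behind the values was uneven. The library size behind each goat's FPKM, the reads scaled by gene length and library size, ran from 10443023 to 39473244 in the 180 min comparison. Both members were read well above the counting limit, with 30 to 249 reads of IL1R2 per control goat and 506 to 10880 per goat of the 180 min group. IL18RAP had 70 to 343 reads per control goat and 418 to 7606 per goat of the 180 min group. The lowest of these, the 30 reads of IL1R2 in control goat 4, had an exact Poisson 95% interval of 20.2 to 42.8 reads, which covers counting error only. Levels of listed blood cell markers are given below; a marker that blood lacks would not be listed, so the tables could not show one as absent.

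IL1R2, the decoy receptor, was higher in every goat of the 180 min group than in any control goat, far higher in 6 of the 7 and by little in goat 13. Its normalised read count, the reads divided by the size factor of the goat, had a lowest value of 30.9, a median of 82.5 and a highest value of 240 in the control group. In the 180 min group the lowest value was 280, the median 1819 and the highest 8701. All 7 goats of the 180 min group were above all 7 control goats, although the nearest pair, goat 13 and control goat 3, differed by 1.17-fold. Over all listed genes, 1.84% had groups that did not overlap in this direction. Since the contrast chose the gene, nothing is read from that share.

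The mean of IL1R2 was 117 ± 84.8 in the control group and 3466 ± 3179 in the 180 min group (SD, n = 7 each). The ratio of means was 29.7, that of medians 22.1 and that of geometric means, taken on log2(normalised count + 1), 23.7. The difference of mean log2(normalised count + 1) was 4.57 (SE 0.69), which ranked 3rd of the 1247 listed genes. This SE comes from a linear model (limma) that draws on the variance of all listed genes. Goats 15 and 16 stood above the others, with 7176 and 8701, and together held 65.4% of the summed IL1R2 of their group. Without these 2 goats the mean of the 180 min group was 1677 ± 928 (SD, n = 5), still 14.4-fold above the control mean.

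IL18RAP, the accessory chain for IL-18, was also higher after 180 min, by less than IL1R2. Its normalised read count had a lowest value of 95.8, a median of 161 and a highest value of 412 in the control group. In the 180 min group the lowest was 405, the median 1825 and the highest 7395. The groups overlapped by 1 goat on each side. Goat 13 at 405 fell just below control goat 8 at 412, and the other 6 goats of the 180 min group were above all controls.

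The mean of IL18RAP was 218 ± 115 in the control group and 2808 ± 2759 in the 180 min group (SD, n = 7 each). The ratio of means was 12.9, that of medians 11.3 and that of geometric means 9.21. The difference of mean log2(normalised count + 1) was 3.20 (SE 0.61), ranked 14th of 1247. Goats 15 and 16 were again the highest, with 7395 and 6051, and held 68.4% of the summed IL18RAP of their group. Without them the mean was 1243 ± 681 (SD, n = 5), 5.69-fold above the control mean. Goat 13 was the lowest of the 180 min group for both genes.

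**Figure D1:**
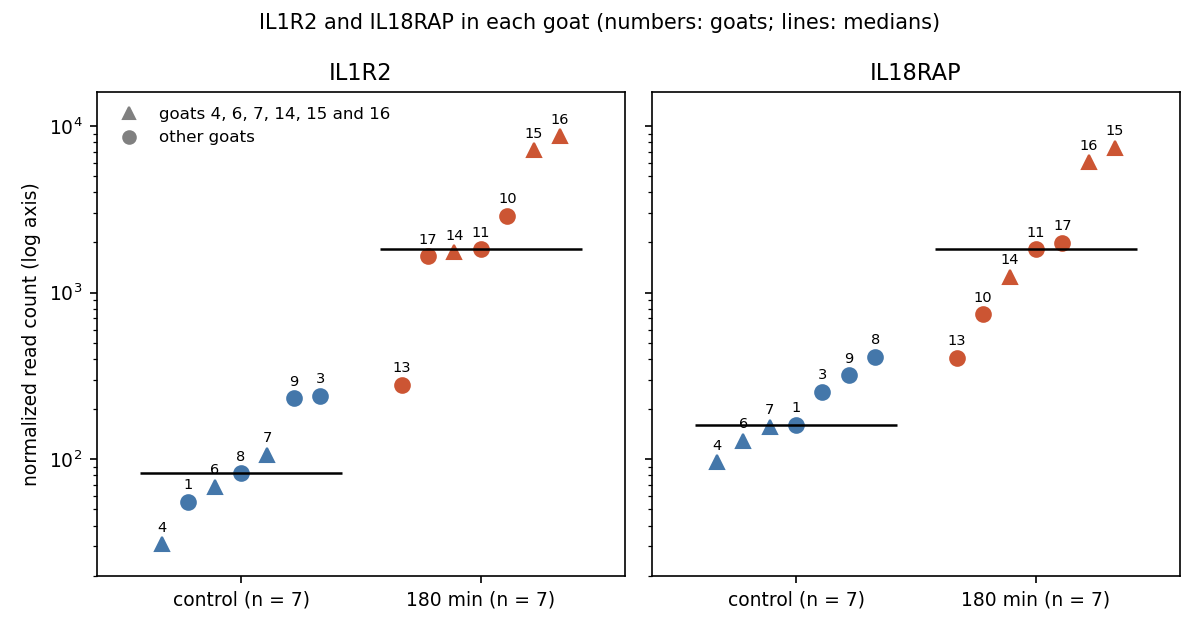
Normalised read counts of IL1R2 (left) and IL18RAP (right) on a log axis, 1 point per goat, with goat numbers, in the control group and the 180 min group (n = 7 each); horizontal lines are medians. For IL1R2 all goats of the 180 min group lie above the controls, and for IL18RAP goat 13 lies level with control goat 8. Triangles are goats 4, 6, 7, 14, 15 and 16, the goats with the 3 highest scores of each group on the first principal component of the other listed genes.

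On the log2 scale the SD of IL1R2 among goats was 1.06 in the control group and 1.64 in the 180 min group. For IL18RAP it was 0.75 and 1.51. The median SD of the 1006 listed genes with a mean normalised count of at least 10 was 0.64 in the control group and 0.85 in the 180 min group. Among these genes, from the highest SD down, IL1R2 ranked 248 in the control group and 168 in the 180 min group, and IL18RAP ranked 406 and 201, so that IL18RAP in control goats was near the middle.

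Per gene length, IL1R2 passed from the lower to about the same level as IL18RAP. The median level of IL1R2 was 0.918 FPKM in the control group and 21.7 FPKM in the 180 min group, and that of IL18RAP was 1.80 and 21.3 FPKM. In the control group the ratio of IL1R2 to IL18RAP in FPKM ran from 0.204 to 0.964 with a median of 0.540, and in 0 of 7 goats was IL1R2 the higher. In the 180 min group the ratio ran from 0.704 to 3.97 with a median of 1.02, and IL1R2 was the higher in 4 of 7 goats. The ranges overlapped, and goat 10 stood apart with a ratio of 3.97 where the next highest was 1.47. This ratio comes from the contrast that chose the genes and was not tested.

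**Figure D2:**
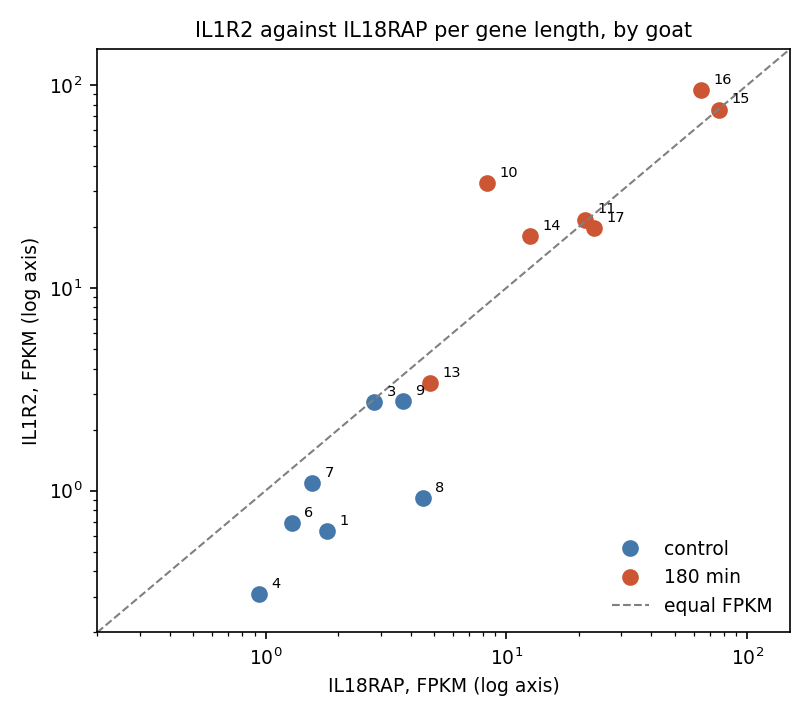
IL1R2 (vertical) against IL18RAP (horizontal) in FPKM on log axes, 1 point per goat, with the line of equal FPKM dashed. All 7 control goats lie below the line, 4 of the 7 goats of the 180 min group lie above it, and goat 10 is the farthest above.

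Goats of the same group also differed from each other over the listed genes of the 180 min table. The first principal component of the within-group deviations of 1004 listed genes, with both members left out, took 34.1% of that variance. Goats 4, 6 and 7 had the 3 highest scores of the control group, and goats 14, 15 and 16 those of the 180 min group, each group being divided at the widest gap between the second and the fifth highest of its scores. Wider gaps lay lower in the 180 min group, around goats 10 and 11. The scores are relative to the goat's own group and overlap between the sets, with control goat 7 at 0.079 and goat 17 of the 180 min group, in the other set, at 0.083. Goat 10 had the score farthest from all others, -0.76. Of the 1004 genes, 97 (9.66%) separated these sets of goats in the same direction in both groups. The sets were made from these same genes, so some separate them by construction, and nothing is read from this share. The sets are not groups of the study, and the labels name nothing that the 6 goats share. The deposited size factor per 1000000 reads of library differed between them without overlap, at 0.0439 to 0.0475 in the 6 goats and 0.0488 to 0.0530 in the other 8, and its part in these results was not tested. With reads scaled by library size instead, the log2 difference was 4.62 for IL1R2 and 3.25 for IL18RAP.

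Both members were therefore also compared within each set. Standard errors within a set come from the SDs of the goats compared and not from limma. Among goats 4, 6 and 7 IL1R2 ran from 30.9 to 106, and among goats 14, 15 and 16 from 1742 to 8701, a log2 difference of 6.27 (SE 0.89, n = 3 each). In the other goats IL1R2 ran from 55.6 to 240 in 4 controls and from 280 to 2887 in 4 goats of the 180 min group, a log2 difference of 3.29 (SE 0.91). Since all 7 goats of the 180 min group were above all controls, IL1R2 could not overlap in either set, and nothing is read from that.

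IL18RAP ran from 95.8 to 156 in goats 4, 6 and 7 and from 1243 to 7395 in goats 14, 15 and 16, a log2 difference of 4.92 (SE 0.84, n = 3 each). In the other goats it ran from 161 to 412 in 4 controls and from 405 to 1996 in 4 goats of the 180 min group, a log2 difference of 1.91 (SE 0.62). The groups of these other goats overlapped. The difference between the sets was not tested. Goats 15 and 16, the highest of their group for both members, share a set with goat 4, the lowest control for both. Nothing is therefore read from the larger log2 differences in that set.

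Goats of the 180 min group with more IL1R2 tended to have more IL18RAP, a relation in which the contrast between groups plays no part. On log2(normalised count + 1), Pearson's r was 0.867 over 7 goats (exact permutation test, two-sided, p = 0.0125, Benjamini-Hochberg adjusted p = 0.0458 over 6 relations). Spearman's rho was 0.643 (exact p = 0.139, adjusted p = 0.20). Without goats 13 and 16, those farthest from the median of IL1R2, r was 0.684 (exact p = 0.233, n = 5), and the relation did not pass the test among the 5 goats left. Leaving out any of goats 11, 13, 14, 15, 16 or 17 took the adjusted p past 0.05, with r between 0.784 and 0.879. Without goat 10 r was 0.980, with an adjusted p of 0.0458 in the exact permutation test.

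In the control group the same relation had r = 0.679 over 7 goats (exact permutation p = 0.10, adjusted p = 0.20) and rho = 0.607 (exact p = 0.167, adjusted p = 0.20). Without goats 3 and 9 r was 0.572 (exact p = 0.317, n = 5). Without control goat 8, which had the highest IL18RAP but a middling IL1R2, r was 0.939 (exact permutation, adjusted p = 0.0250, n = 6). The sets of 3 and 4 goats were too small for a correlation within them.

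Markers of blood cells moved in the same comparison. From RNA of bulk blood alone, fewer cells of a type and less RNA per cell cannot be told apart, and no cell counts per goat were used here. Of 28 neutrophil markers 10 were listed at 180 min, all higher in the 180 min group, and 7 passed the test (limma on log2(normalised count + 1), adjusted p under 0.05 over the listed genes). Over all 1247 listed genes, 16.6% passed in this direction and 7.14% in the other, and 62.4% had an unadjusted limma p under 0.05. That balance turned with the scaling, to 148 higher and 223 lower after centring on the median listed gene, 140 and 363 with edgeR's TMM and 181 and 450 with DESeq2, where 6, 7 and 7 of the 10 neutrophil markers passed. These calls came down to 0 of 10 when any of goats 4, 6, 15 or 16 was left out, and to 4 or 5 without any of goats 1, 7, 8, 10, 11, 14 or 17. The 7 were CSF3R, the receptor for the growth factor of granulocytes, S100A12, MMP25, ALPL, PGLYRP1, LTF and PROK2. The summed normalised count of the 10 ran from 23250 to 98441 in the control group and from 75482 to 265560 in the 180 min group, so the ranges overlapped.

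Other cell types were also represented. Of 13 monocyte markers 4 were listed, all higher, with 2 past the test (CSF1R and CD163), and their sum ran from 3425 to 10942 in the control group and from 10137 to 31643 in the 180 min group. Of 22 T cell markers 8 were listed, all lower, with 4 past the test (CD3E, CD5, LCK and UBASH3A), and their sum ran from 8945 to 17297 and from 4723 to 10062. Of 16 natural killer cell markers NKG7 alone was listed, and it rose, by 0.88 on the log2 scale (limma adjusted p = 0.0353), a call lost with edgeR's TMM scaling and without goat 1, 4, 6, 11, 15 or 16. It ran from 1053 to 2252 in the control group and from 1992 to 3305 in the 180 min group.

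The remaining marker lists held few listed genes. Of 17 B cell markers 1 was listed (MS4A1, lower, not past the test). The eosinophil list of 11 genes had 2 listed, ADGRE1 (past the test, higher) and CCL24, a chemokine (higher, not past the test). CCL24 was near 0, at 0 to 3.70 in the control group and 0 to 30.2 in the 180 min group. Whether either gene marks eosinophils in goat blood was not tested. Of 9 platelet markers 2 were listed (CLEC1B past the test, higher) and of 11 red cell markers 0. CLEC1B was also low, at 0 to 4.51 in the control group and 0 to 67.6 in the 180 min group. MS4A1 passed as lower with DESeq2, with TMM and with a term for the sets of goats. The eosinophil call was lost without goat 1, 4, 6, 7, 8, 15 or 16, with DESeq2 and with TMM. The platelet call was lost without any goat but 14, after centring, with TMM and with either other pseudocount. The filter on low values took CLEC1B out before the test. The T cell calls rose to 7 or 8 of 8 with both edgeR fits, DESeq2 and centring, and came down to 0 to 2 when goat 1, 4, 6, 7, 8, 11, 14, 15 or 16 was left out. Lower calls over all 1247 listed genes also rose, from 89 to 211 and 363 with edgeR on deposited and TMM size factors, 450 with DESeq2 and 223 after centring. The rise was thus not particular to the T cell list. The 2 monocyte calls came down to 0 without goat 4, 6, 15 or 16 and to 1 without goat 1, 8 or 11. By mean log2(normalised count + 1), the listed genes of the neutrophil, monocyte, eosinophil and platelet lists lay on the members' side, as did NKG7. Those of the T cell list and MS4A1 lay on the other side. The median sum of the 2 platelet markers was however lower in the 180 min group, at 1124, than in the control group, at 1307, and goat 10 had the highest sum, 20098. These markers were all listed by the same contrast as the members. Their part in the difference of IL1R2 and IL18RAP was not tested.

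Within groups, IL1R2 was set against the neutrophil level, the mean log2(normalised count + 1) of the 10 listed neutrophil markers. These markers were listed by the contrast that chose the members, and the other markers of their list have no values here. The relations below therefore hold for the listed markers only and are not a test of neutrophil number. Among control goats r was 0.870 (n = 7, exact permutation p = 0.0153, adjusted p = 0.0458 over the 6 relations) and rho was 0.750 (exact p = 0.0663, adjusted p = 0.20). Without goats 4 and 9 r was 0.693 (exact p = 0.20, n = 5), and this relation did not pass the test among the 5 goats left. Leaving out any of goats 3, 4, 6, 7, 8 or 9 took the adjusted p past 0.05, with r from 0.791 to 0.891, while without goat 1 r was 0.975 (exact permutation, adjusted p = 0.0167). In the 180 min group r was 0.573 (n = 7, exact permutation p = 0.178, adjusted p = 0.215) and rho was 0.643 (exact p = 0.139, adjusted p = 0.20), and without goats 10 and 13 r was 0.474 (exact p = 0.425, n = 5).

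IL18RAP against the neutrophil level gave r = 0.574 in the control group (n = 7, exact permutation p = 0.179, adjusted p = 0.215) and rho = 0.643 (exact p = 0.139, adjusted p = 0.20). Without goats 4 and 9 r was 0.149 (exact p = 0.825, n = 5), and without goat 8 it was 0.954 (exact permutation, adjusted p = 0.0250). In the 180 min group r was 0.209 (n = 7, exact permutation p = 0.650, adjusted p = 0.650) and rho was 0.25 (exact p = 0.595, adjusted p = 0.595). Without goats 10 and 13 r was 0.590 (exact p = 0.292, n = 5), and without goat 13 alone it turned to -0.233. Goat 10 had the highest neutrophil level of all, 13.1, with an IL18RAP of 744, the second lowest of its group.

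Goats with a similar neutrophil level could be read side by side. Goat 13 of the 180 min group had a neutrophil level of 11.1, and control goats 3 and 9 had 11.2 and 11.3. IL1R2 was 280 in goat 13, 240 in goat 3 and 232 in goat 9. IL18RAP was 405, 254 and 319 in the same goats. Goat 14, at a neutrophil level of 11.4, had 1742 of IL1R2 and 1243 of IL18RAP. The markers behind this level, like the members, were listed by the 180 min contrast, so these goats are a description and nothing is read from them.

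**Figure D3:**
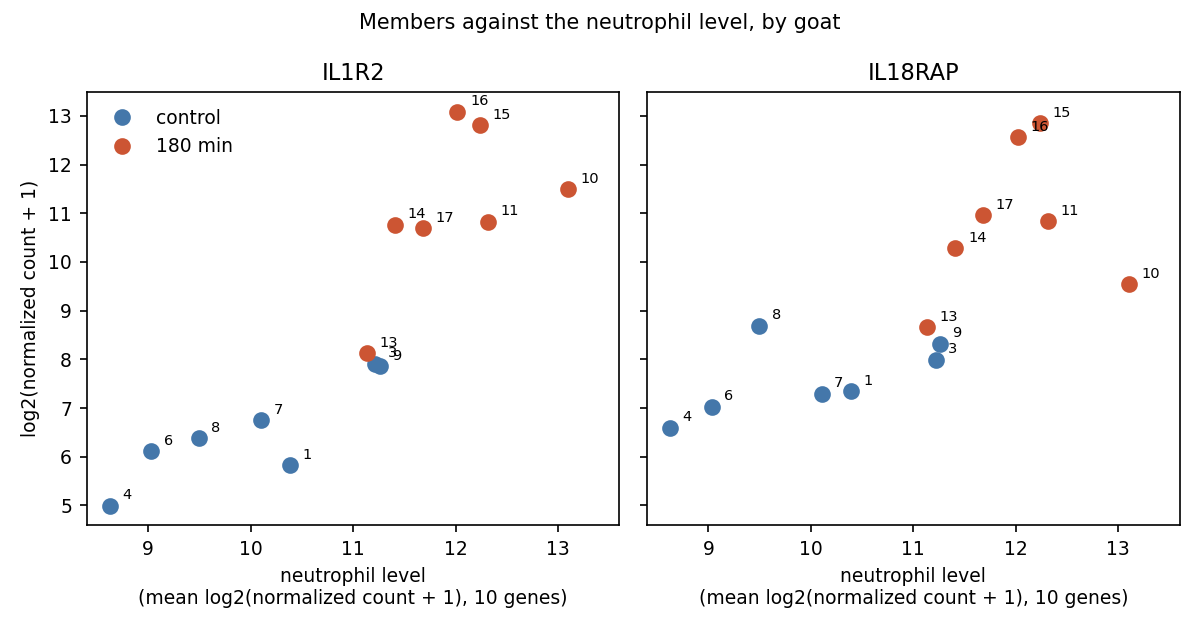
IL1R2 (left) and IL18RAP (right) as log2(normalised count + 1) against the neutrophil level, the mean log2(normalised count + 1) of 10 listed neutrophil markers, 1 point per goat. Goat 13 of the 180 min group lies near control goats 3 and 9 on the horizontal axis, and goat 10 has the highest neutrophil level but a low IL18RAP for its group.

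The other genes of the IL-1 and IL-18 pathway were taken from 6 lists with 82 genes, of which 12 were listed at 180 min, members included. Of the 10 genes other than the members, 9 were higher and 1 lower in the 180 min group, and 4 passed the test, all higher. These 4 were PTX3, NLRP1, MAPK14 and MAPK13. The median log2 difference of the 10 genes was 1.27, beside 0.68 over all 1247 listed genes. The share of all listed genes past the test in the higher direction was 16.6%, as given above. With edgeR on the deposited size factors 8 of the 10 passed, all higher, where 456 of the 1247 listed genes were called higher. With a term for the sets of goats 7 passed as higher and CCL2 as lower, where 438 listed genes were called higher and 243 lower. The sets were made from within-group deviations of listed genes, so the term takes up part of that spread, and nothing is read from its calls. Leaving out goat 4, 6 or 15 left PTX3 alone past the test, and leaving out goat 1 or 16 left 2 of the 10.

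None of the 9 ligands, which include IL1A, IL1B, IL18 and IL33, was listed, so no ligand was read beside its receptor. Of the 5 antagonists and binding proteins IL1R2 was listed alone, without IL1RN or IL18BP. Of the 8 receptors and co-receptors IL18RAP and IL1RAP were listed.

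IL1RAP (ENSCHIG00000017471, chr1:76349015-76502469, minus strand) is the signalling partner of IL1R1, and the decoy IL1R2 can also bind it. Its normalised count ran from 29.8 to 380 with a median of 118 in the control group, and from 0 to 3679 with a median of 302 in the 180 min group. The difference of mean log2(normalised count + 1) was 0.94 (SE 1.48) and did not pass the test (limma adjusted p = 0.539). IL1RAP passed in 1 of 9 other settings, edgeR with the deposited size factors. Goat 10 had 0 reads, which allows up to 3 reads or a normalised count of 5.34, and without goat 10 the difference was 2.29 (SE 0.88, limma adjusted p = 0.0634). IL1RAP was highest in the set of 6 goats, with 332 to 380 in goats 4, 6 and 7 and 1723 to 3679 in goats 14, 15 and 16. Of the other goats none was above 118 in the control group or above 302 in the 180 min group. The log2 difference of IL1RAP was 2.83 (SE 0.32) within the 6 goats and -0.48 (SE 1.96) within the others, which include goat 10. IL1RAP was among the 1004 genes that made the sets, while the members were left out of them, so nothing is read from this.

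Among 26 adaptors and kinases 3 were listed, all higher. MAPK14, the p38 alpha kinase, ran from 601 to 1172 in the control group and from 1119 to 5537 in the 180 min group, a log2 difference of 1.28 (SE 0.35, limma adjusted p = 0.0353). MAPK13, the p38 delta kinase, had a log2 difference of 1.26 (SE 0.44, limma adjusted p = 0.0491), and that call was lost in 4 of 9 other settings. TIRAP, the adaptor that bridges Toll-like receptors to MYD88, had a log2 difference of 2.41 (SE 0.96), not past the test (limma adjusted p = 0.0618). TIRAP passed in 3 of 9 other settings. All 3 overlapped between the groups. The MAPK14 call was lost when goat 1, 4, 6, 8, 15 or 16 was left out (limma adjusted p up to 0.0653), and that of MAPK13 when any goat but 8 or 11 was (up to 0.0841).

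Among 16 genes of the inflammasome and of cytokine maturation 2 were listed, both sensors of the NLR family. NLRP1 ran from 1355 to 2390 in the control group and from 2671 to 6243 in the 180 min group without overlap, a log2 difference of 1.13 (SE 0.25, limma adjusted p = 0.0291), a call lost without goat 4, 6 or 15 (up to 0.0578). NLRP3 had a log2 difference of 1.43 (SE 0.75, limma adjusted p = 0.0974) and overlapped. NLRP3 passed in 2 of 9 other settings. CASP1, the protease that matures both cytokines, was not listed.

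Among 18 response genes 4 were listed. PTX3, a pentraxin that neutrophils and myeloid cells release under IL-1, ran from 69.0 to 1100 in the control group and from 1804 to 58703 in the 180 min group without overlap. Its log2 difference of 5.51 (SE 0.86, limma adjusted p = 0.00375) was the highest of all 1247 listed genes. CXCL8, the neutrophil attractant, had a log2 difference of 2.89 (SE 1.05, limma adjusted p = 0.0549), and SOCS3, which restrains cytokine signals, had 0.78 (SE 0.46, limma adjusted p = 0.130). Neither passed, but CXCL8 did in 3 of 9 other settings and without goat 8, and SOCS3 in 1 of 9. CCL2, the monocyte attractant, was the 1 gene on the lower side, at 0 to 12.9 in the control group and 0 to 2.76 in the 180 min group. CCL2 did not pass the test (limma adjusted p = 0.0552). It did pass without goat 8, 9 or 13, after centring, with TMM and with the term for the sets. Nothing is read from the last of these, since the sets were made from deviations of listed genes.

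**Figure D4:**
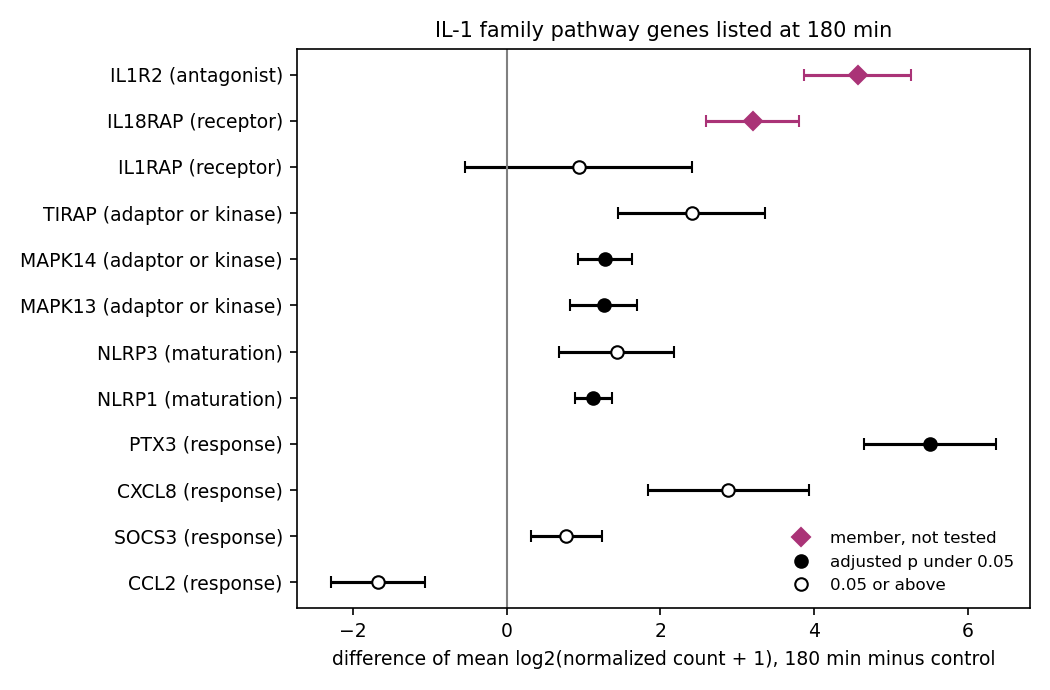
Difference of mean log2(normalised count + 1), 180 min group minus control group, for the 12 listed genes of the IL-1 family lists, with standard errors (n = 7 each). Diamonds are IL1R2 and IL18RAP, which were not tested; filled circles passed the test (PTX3, NLRP1, MAPK14 and MAPK13) and open circles did not; CCL2 is the only gene below 0.

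IL1R2 also belongs to a list of 19 genes that glucocorticoids induce. Of the 8 listed at 180 min all had a higher mean log2(normalised count + 1). Of the 7 other than IL1R2, 4 passed the test, CD163, DDIT4, CEBPD and PER1, with log2 differences of 1.90, 1.63, 1.59 and 1.40. CD163 is also among the monocyte markers past the test given above, so that call stands in both lists, and markers of neutrophils and monocytes moved in the same comparison. SGK1, CEBPB and DUSP1 had log2 differences of 0.86, 0.55 and 0.45 and did not pass. The medians of CEBPB and DUSP1 were lower in the 180 min group, at 1983 and 1022, than in the control group, at 2053 and 1202. The median of the 7 was 1.40, beside 0.68 over all listed genes, of which 741 of 1247 were on the higher side and 16.6% passed in that direction. IL1R2 had 4.57. Of the 4 calls 0 were left without goat 4, 15 or 16, and 1 without goat 6.

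After 30 min neither member was listed, so their level in those 4 goats is not analysed here. The 30 min table was normalised apart and uses the same 7 control goats, so values are given side by side with no comparison. Of the 82 pathway genes 7 were listed, and 2 passed the test, NFKBIA and PTX3, where 1.86% of the 430 listed genes passed in the higher direction. NFKBIA, the inhibitor of NF-kB, ran from 437 to 863 in the control group and from 1774 to 3406 in the 30 min group, a log2 difference of 1.68 (SE 0.28, limma adjusted p = 0.0209). PTX3 ran from 57.6 to 1049 and from 2213 to 3934, a log2 difference of 3.82 (SE 0.75, limma adjusted p = 0.0393). Both were separated between the groups, as were 6.51% of the 430 genes in this direction. The NFKBIA call was lost without goat 1, 21 or 24 (limma adjusted p up to 0.0738), and that of PTX3 without goat 1, 4, 6, 21, 22 or 24 (up to 0.0934).

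The other 5 pathway genes listed at 30 min did not pass the test. CXCL8, ICAM1, NLRP12 and SOCS3 were on the higher side with log2 differences of 3.79, 1.24, 0.95 and 0.77, and TNF was on the lower side with -2.43. CXCL8, ICAM1 and SOCS3 passed with DESeq2 and after centring, while NLRP12 and TNF passed in 0 of 8 other settings. Of the 19 glucocorticoid-induced genes 8 were listed at 30 min, all on the higher side, as were 127 of the 430 listed genes, and NFKBIA and CEBPB passed the test. Of these 2 calls 0 were left without goat 1, 21 or 24 and 1 without goat 4, 6 or 22, while with DESeq2, which called 96 of the 430 listed genes higher, all 8 passed. Among the cell markers 1 of neutrophils, 1 of natural killer cells, 6 of B cells and 1 of eosinophils were listed, and 0 passed, although 1 neutrophil marker and 1 B cell marker had an unadjusted limma p under 0.05, as did 46.0% of the 430 genes. With DESeq2 the gene of the eosinophil list, the chemokine CCL24, passed, and with both edgeR fits again 0 did. CCL24 ran from 0 to 3.06 in the control group and from 0 to 48.9 in the 30 min group.

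The genes whose pattern among goats was most like each member were found by Pearson's r of within-group deviations over the 14 goats, among 773 named genes with a mean normalised count of at least 10. These values are a description, since each goat's library, with its depth and its place in the sets above, enters every gene. For IL1R2 the closest were SLC26A8 (r = 0.869), IL18RAP (r = 0.816), E2F2 (r = 0.810), SLC45A4 (r = 0.806) and MB21D2 (r = 0.788), where the median gene had 0.163. SLC26A8, an anion transporter, ran from 31.4 to 252 in the control group and from 298 to 2376 in the 180 min group without overlap, a log2 difference of 3.46 (SE 0.53, limma adjusted p = 0.00342). SLC45A4 rose by 0.93 on the log2 scale (limma adjusted p = 0.0411), a call that was lost with edgeR's TMM scaling (adjusted p = 0.0603) and when goat 1, 4, 6, 7, 8, 11, 14, 15 or 16 was left out. E2F2 and MB21D2 had log2 differences of 0.77 and 0.72 and did not pass (limma adjusted p = 0.0509 and 0.0565). Each passed in 4 of 9 other settings, and E2F2 also without goat 3, 9 or 13 and MB21D2 without goat 3 or 13.

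For IL18RAP the closest were SOCS3 (r = 0.833), IL1R2 (r = 0.816), OAZ2 (r = 0.803), LGALS3 (r = 0.796) and C5AR1 (r = 0.793), where the median gene had 0.102. C5AR1, the receptor for the complement peptide C5a on neutrophils and monocytes, ran from 3472 to 7055 in the control group and from 6514 to 34572 in the 180 min group, a log2 difference of 1.49 (SE 0.36, limma adjusted p = 0.0296). LGALS3, the lectin galectin-3, ran from 1849 to 2812 and from 3152 to 8258 without overlap, a log2 difference of 1.12 (SE 0.28, limma adjusted p = 0.0296). OAZ2 had 0.75 (SE 0.25, limma adjusted p = 0.0470), a call lost in 3 of 9 other settings and without any goat but 9, 10 or 13, and SOCS3 is given above. The calls of C5AR1 and LGALS3 were lost without goat 4, 6, 15 or 16 (limma adjusted p up to 0.0628). The likeness to IL18RAP rested more on the 180 min group, where r was 0.867 to 0.920 for these 4 genes, than on the control group, where r was 0.252 to 0.485. Each member was second in the other's order.

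Near the members on chromosome 11, where 44 genes were listed at 180 min, 3 other listed genes lay within 1 Mb, and 1 of them passed the test. Over all 1247 listed genes 16.6% passed as higher and 7.14% as lower, so nothing is read from this count. MAP4K4, a kinase gene that starts before IL1R2 and ends 62.0 kb from it, had a log2 difference of 0.86 (SE 0.38, limma adjusted p = 0.0734). RNF149, a ubiquitin ligase gene 480 kb away, had 0.82 (SE 0.34, limma adjusted p = 0.0682). MAP4K4 passed in 1 of 9 other settings, and RNF149 in 2 of 9 and without goat 13. RF00578, a small nucleolar RNA 507 kb away, ran from 0 to 27.8 in the control group and from 2.76 to 81.8 in the 180 min group, a log2 difference of 2.63 (SE 0.90, limma adjusted p = 0.0491), and that call was lost in 4 of 9 other settings and without any goat but 7 or 13. Only listed genes have values here, so the genes between the members were not read.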

How the data were processed

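Blood RNA of 18 goats, 1 library per goat, was read from 2 deposited tables, and goats were placed in groups by their labels. The authors cleaned the reads with fastp, aligned them with HISAT2 to a goat genome and counted them per gene; the build and the counting tool are not given in the sources used here. The deposited counts are whole reads per gene. The deposited normalised counts (signal) are those counts divided by 1 size factor per goat, which the authors computed apart for the 2 comparisons. In the deposited FPKM the counts are divided by gene length and by a library size per goat. Each table also holds the authors' log2 fold changes, p-values and adjusted p-values, which were not used as results; the p-value column was read only to find how the tables were filtered, since every listed gene has an unadjusted value under 0.05 (1247 at 180 min and 430 at 30 min, 308 and 119 of them without a name).

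Listed genes were tested two-sided with limma 3.58.1 (lmFit and eBayes, R 4.3.3) on log2(normalised count + 1), with Benjamini-Hochberg adjustment over the genes of a table and a call at an adjusted p under 0.05. Such a p over genes already selected is not a false discovery rate over all genes. Standard errors of log2 differences are those of the limma fit, moderated over the listed genes. Within the sets of goats they come from the SDs of the goats compared, so the 2 kinds are not alike. Because the tables lack the unchanged genes, edgeR 4.0.16 and DESeq2 1.42.0 on the counts were alternatives. p-values measure the spread between goats. No pair of goats of a group had equal counts in more than 1.58% of genes with over 10 reads. Correlations were tested by exact permutation over pairings in Python 3.11.15 with scipy 1.17.1. The test scripts were tested on simulated data.

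The members and lists were chosen with earlier results of these data known. Genes were named by a rule: both members, every listed gene of the 6 IL-1 family lists, for each member the 5 named genes with the most alike within-group deviations, and listed genes within 1 Mb. Markers named from other lists are those past the test, the single listed B cell marker, CCL24 of the eosinophil list and all glucocorticoid genes listed at 180 min. Of 939 named genes of the 180 min table, 868 were found in the RefSeq table of assembly ARS1.2, which was used for gene order only. The alternatives tried are another pseudocount, a filter on low values, other scalings, other tools, a term for the sets of goats and leaving out each goat. No sequence was used here.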

Additional observations from a re-analysis of the deposited data

Results flagged for a closer look

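IL1RAP in goat 10 of the 180 min group lay below the other goats of its group. On log2(normalised count + 1), the gap from goat 10, with 0 reads, to the next lowest goat was 0.603 of the range of the 7 goats, above Dixon's 95% critical value for 7 samples. The pseudocount sets the place of 0 reads, which allow a normalised count up to 5.34, so this check cannot decide how far below goat 10 lay. On the normalised count itself goat 15, the highest, stood out most and did not pass the critical value. Goat 10 set the ratio of IL1R2 to IL18RAP apart as well. Its log2 FPKM ratio was 1.99, with the gap to the next highest goat at 0.575 of the range, again above the critical value. Goat 10 also had the largest share of its library on the listed genes of the 180 min table (26.2%, where the other 13 goats had 4.22% to 14.3%) and the highest summed level of the 2 listed platelet markers (20098). The part of these values in both results was not tested. Of 14 such checks 2 passed the critical value, where chance passes about 1 in 20 groups.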

How the results depend on the processing

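IL1R2 and IL18RAP stayed higher in the 180 min group under all 25 alternatives run for each. The same contrast chose both genes, and leaving out 1 goat could not turn IL1R2, whose groups did not overlap. Nothing is therefore read from the unchanged direction. The log2 differences of IL1R2 and IL18RAP, 4.57 and 3.20, ran from 4.24 to 5.07 and from 2.86 to 3.56 when 1 goat was left out. In goats 4, 6, 7, 14, 15 and 16 they were 6.27 and 4.92, and in the other goats 3.29 and 1.91, a split chosen after seeing the data, as were the term for it and edgeR with the deposited size factors. The split was made from deviations of the listed genes themselves. Nothing is therefore read from the larger differences in the 6 goats or from a rise in calls under the term.

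The number of listed genes called moved with the processing. At 180 min it was 296, and 778 at an unadjusted p under 0.05, 631 with DESeq2, 667 and 503 with edgeR with deposited and TMM size factors, 171 with a pseudocount of 0.1, 681 with the term for the sets, and 11 to 349 with 1 goat left out, falling to 21 or fewer without goat 4, 6, 15 or 16. Higher and lower calls were 207 and 89, but 148 and 223 after centring, 140 and 363 with TMM and 181 and 450 with DESeq2. At 30 min it was 9, and 198 unadjusted, 121 after centring, 129 with DESeq2, 23 and 17 with edgeR, 16 with a pseudocount of 10 and 0 to 21 with 1 goat left out. Centring, TMM and DESeq2 moved the median log2 difference of all listed genes at 180 min by -0.19, -0.41 and -0.35, and centring, DESeq2 and edgeR with deposited size factors moved it at 30 min by 0.69, 0.17 and -0.18. The cause was not tested. In the IL-1 family lists without the members, 4 genes were called at 180 min, and 8 with edgeR with deposited size factors, 8 with the term for the sets and 1 to 5 with 1 goat left out. At 30 min it was 2, and 5 after centring, 5 with DESeq2, 4 with a pseudocount of 10 and 0 to 3 with 1 goat left out.

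With 1 goat left out, r of IL1R2 with IL18RAP ran from 0.479 to 0.939 in the control group and from 0.784 to 0.980 at 180 min. For IL1R2 with the neutrophil level it ran from 0.791 to 0.975 and from 0.232 to 0.758, and for IL18RAP from 0.337 to 0.954 and from -0.233, without goat 13, to 0.800. Of the values of single genes under the alternatives, 44 came past the threshold, 82 lost it, the rest kept their side and 0 turned direction. The split into sets is not among these alternatives, and within the 8 goats outside the set of 6 IL1RAP turned from 0.94 to -0.48 (SE 1.96).

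No paired analysis was possible because goats of different groups share no number. Tables of selected genes limit every count above to the listed genes. Reads per goat were enough for both members, and the number of goats limits the precision.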
